A study of Mus musculus with 2 samples.

Results

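The cells described here are tumour T cells rich in transcripts of cell division. A tumour cell was taken as mitotic when 11 genes of mitosis (Mki67, Top2a, Birc5, Cdk1, Ccnb1, Ccnb2, Ccna2, Ube2c, Cenpa, Cenpe and Nusap1) made up at least 0.1% of its unique molecular identifiers (UMIs), the tags by which each captured transcript is counted once. The cells were thus chosen by measured values of these genes. This gave 382 of 1457 tumour cells, 26.2% (exact binomial 95% interval 24.0 to 28.6). They were set against 476 tumour cells with fewer than 2 UMIs of these genes, called comparison cells. The other 599 cells lay in between. Since measured values chose both groups of cells, every difference between them below is a description and carries no test.

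The study profiled sorted cells of Foxp3Cre-YFP mice by droplet single-cell RNA sequencing of transcript 3' ends. Its groups were 1 library of B16 tumour taken at day 14, from a transplanted mouse melanoma line, and 1 library of lymph node from unchallenged animals. All animals were C57BL/6, aged 5 to 8 weeks, and carried the same allele, in which the Foxp3 locus drives Cre recombinase and a yellow fluorescent protein. The labels name neither the gate of the sort nor the number of mice behind each library. Each group being 1 library, no difference between tissues or cells has a replicate check. Intervals in the text are exact 95% intervals of counts. They cover counting error only, not variation between cells, mice or libraries.

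Regulatory T (Treg) cells are CD4 T cells that restrain immune responses and depend on the transcription factor Foxp3. Dividing cells first copy their DNA and then build a spindle that pulls the copies apart. Cyclin A and cyclin B activate the kinase CDK1 to start mitosis, and the anaphase-promoting complex ends it by marking cyclin B and securin for destruction. Many genes of mitosis are switched on late in the cycle through a promoter element called the cell cycle gene homology region (CHR), which is bound by the DREAM and MuvB complexes, often with CCAAT boxes, the sites of NF-Y, close by.

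Promoters of 4 of the 11 genes are shown because these genes chose the cells and carry both elements. Ccnb2 also carries both and is not shown. Its CHR letters lie 167 bases before the start, and the stretch of 103 bases around them holds 0 CCAAT boxes. The sequences are RefSeq's, on build GRCm38.p6, written 5' to 3' on the gene's own strand and upstream of RefSeq's start. By the gene coordinates given further below, from another annotation, the Cdk1 and Ube2c stretches reach into the gene. Capitals mark the CHR letters TTTGAA and the CCAAT box, each in either orientation (TTCAAA and ATTGG on the other strand). The Cdk1 stretch is chr10:69352913-69353017 on the minus strand, Mki67 chr7:135716458-135716567 on the minus strand, Ube2c chr2:164769810-164769919 on the plus strand and Top2a chr11:99024193-99024302 on the minus strand.
Cdk1: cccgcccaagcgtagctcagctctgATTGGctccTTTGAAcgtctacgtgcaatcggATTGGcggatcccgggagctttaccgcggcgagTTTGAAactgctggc
Mki67: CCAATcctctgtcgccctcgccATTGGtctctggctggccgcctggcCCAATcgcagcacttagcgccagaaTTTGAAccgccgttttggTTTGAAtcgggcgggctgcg
Ube2c: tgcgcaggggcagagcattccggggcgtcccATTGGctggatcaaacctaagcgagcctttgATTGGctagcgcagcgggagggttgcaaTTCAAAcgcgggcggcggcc
Top2a: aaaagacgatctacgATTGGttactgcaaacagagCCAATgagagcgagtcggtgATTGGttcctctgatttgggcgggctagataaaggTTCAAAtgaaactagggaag
Of the 11 genes, 10 matched the promoter table. In the 250 bases before the start, 5 of the 10 held the CHR letters and 8 held a CCAAT box, and 5 held both. Over all 27025 genes of the table the shares were 18.3% for the CHR letters, 37.5% for CCAAT and 6.45% for both. Taking the 11 genes with 5 further lists of mitosis genes, 80 of 100 genes matched, and 30% held the CHR letters, 70% a CCAAT box and 26.25% both. Of 38 genes of DNA replication, 30 matched, with shares of 10% for the CHR letters and 60% for CCAAT. A match of letters is not evidence that a factor binds there.

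The mitotic cells were the larger libraries of the tumour sample. The tumour matrix held 23618037 UMIs and the lymph node matrix 14000036. Mitotic cells had a median of 17661 UMIs and 3653 genes, against 5979 UMIs and 1931.5 genes in comparison cells, with 8978 UMIs and 2455 genes in the cells in between. Mitotic cells held 43.9% of all UMIs of tumour cells. Of the 73 tumour cells in the top 5% by UMIs, 65 were mitotic. The requirement of fewer than 2 UMIs is met more easily by a shallow cell, so the choice of comparison cells bears on this gap. For that reason ratios are also given within a shared depth range of 6798 to 11805.5 UMIs, which holds 60 mitotic cells (median 9855 UMIs) and 143 comparison cells (median 8432 UMIs), with 3941 genes at 50 UMIs or more. Ratios in this range are given without intervals, and genes with few UMIs rest on few counts there. Of these 60 cells, 13 were late-leaning in the sense given below. Only 1 cell barcode occurred in both libraries, and it was not that of a mitotic cell.

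The share of UMIs in the 11 genes was spread widely among the 382 cells. It ran over a range of 0.101% to 1.16% with a median of 0.312%, and the UMIs of the 11 genes ranged from 4 to 228 per cell with a median of 52. In 8 mitotic cells the call rested on fewer than 10 such UMIs. The 3 cells just inside the threshold had shares of 0.101%, 0.102% and 0.102%, and the 3 just outside had 0.0981%, 0.0982% and 0.0991%. Free RNA in tumour droplets, read from 188818 barcodes of at most 100 UMIs, itself held 0.209% of its UMIs in the 11 genes, above the 0.1% threshold. Those barcodes carried a mean of 20.7 UMIs each, of which 0.0432 fell in the 11 genes, against the median of 52 in a mitotic cell.

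**Figure D1:**
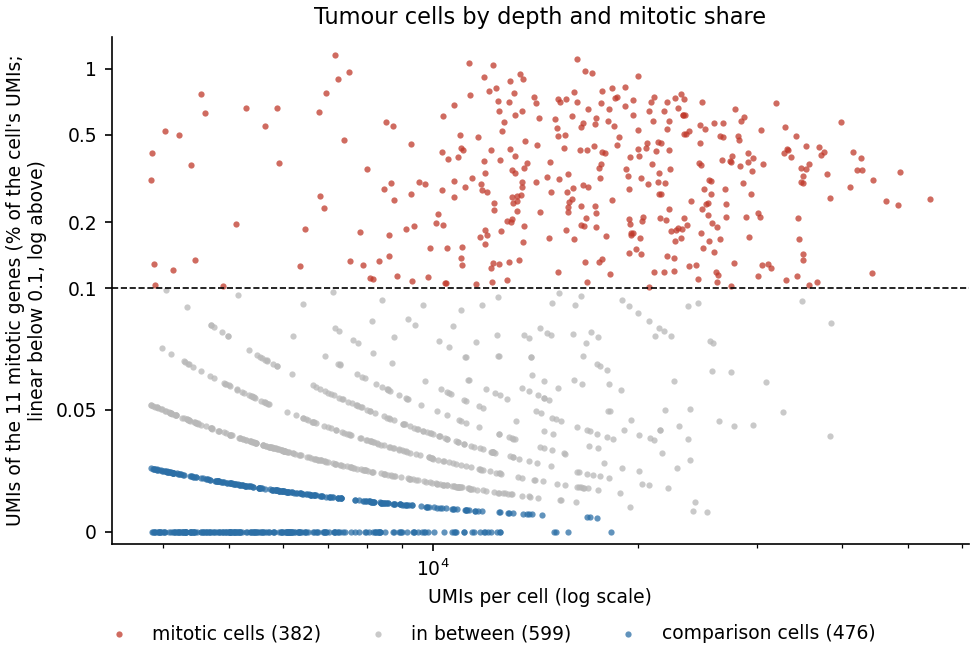
Each point is 1 of 1457 tumour cells, with its UMIs on the x axis (log scale) and the percent of its UMIs in the 11 mitotic genes on the y axis (linear below 0.1, log above). The 382 mitotic cells lie above the dashed line at 0.1% and mostly at greater depth, with a median of 17661 UMIs against 5979 in the 476 comparison cells.

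Marker genes placed the mitotic cells among T cells with Treg transcripts. Every mitotic cell held at least 5 UMIs of Cd3 genes (median 45), which encode the T cell receptor complex, and at least 13 UMIs of the 7 Treg markers (median 55). A UMI of Foxp3 itself was found in only 70 of the 382 mitotic cells and 70 of the 476 comparison cells. All 7 T cell markers were detected, at a summed level of 4524 CPM (the summed UMIs of a gene scaled to an equal total for each group) in mitotic cells and 7170 CPM in comparison cells, and the 7 Treg markers at 3254 and 5995 CPM. The 6 markers of mitotic cells, all of them among the genes that chose the cells, stood at 2540 CPM in mitotic cells and 67.7 CPM in comparison cells.

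Markers of other cells were low in both groups. Conventional CD4 T cell markers, cytokine genes for the most part, stood at 43.6 CPM in mitotic cells and 51.0 CPM in comparison cells. Of the pair of CD8 genes, Cd8a had 0 UMIs in both, while Cd8b1 stood at 18.7 and 19.5 CPM. The 9 macrophage markers summed to 11.1 and 14.8 CPM, with Adgre1 at 0 in mitotic cells, the 5 B cell markers to 5.19 and 11.6 CPM, with Ms4a1 at 0, and the 4 endothelial markers to 20.8 and 24.9 CPM, with Kdr and Cdh5 at 0. NK cell, dendritic, fibroblast and erythroid lists each summed to less than 1 CPM in mitotic cells, and the 5 neutrophil and mast cell markers were at 0 in both groups. The 8 B16 melanoma markers stood at 34 CPM in mitotic cells and 48.8 CPM in comparison cells. Per cell, a melanoma UMI here and below means a UMI of Pmel, Dct, Mlana, Tyr or Tyrp1, not of all 8 markers. At median depths of 17661 and 5979 UMIs, it was present in 143 mitotic cells (37.4%, at most 4 UMIs) and 108 comparison cells (22.7%, at most 3). The part of this tumour RNA in the differences below was not tested beyond the values without such cells, which the closing section gives.

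Among 8325 genes with at least 50 UMIs over both groups, 789 (9.48%) were at least 2-fold higher in mitotic cells and 476 (5.72%) at least 2-fold lower. Their median log2 ratio was -0.05. With genes of at least 20 UMIs, as used for the lists below, 9.94% of 9768 were at least 2-fold higher and 7.42% lower. The counting interval excluded every value within 2-fold for 432 of the higher and 145 of the lower genes. A scaling by trimmed means would add 0.12 to every log2 ratio and one by the median of ratios 0.13. These ratios compare shares of the transcripts of a cell. On the scale of UMIs per cell, where a mitotic cell had 2.87 times the UMIs of a comparison cell, the median gene was 2.78-fold higher and 99 genes (1.19%) were lower.

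The cyclins and CDK1 gave few UMIs outside the cells chosen. Ccnb1 (ENSMUSG00000041431; GRCm38 chromosome 13, 100778650 to 100786570, minus strand), which encodes cyclin B1, had 1181 UMIs in mitotic cells and 4 in comparison cells, or 161 against 1.26 CPM, a ratio of 128 (49.9 to 471). In the cells in between it stood at 9.24 CPM. At least 1 Ccnb1 UMI was found in 73.8% of mitotic and 0.840% of comparison cells, and still in 38.5% against 0.630% after each cell was thinned to 3834 UMIs. Ccnb2, the second B-type cyclin gene, had 2070 and 5 UMIs (ratio 180, 76.9 to 554), and Ccna2, cyclin A2, had 1819 and 7 (113, 54.6 to 281). Cdk1 itself (ENSMUSG00000019942; chromosome 10, 69335146 to 69352938, minus strand) stood at 233 and 3.15 CPM (73.9, 40.1 to 154). These 4 genes were among the 11 that chose the cells, so their ratios show the size of the gap and not a finding. The median log2 ratio of all 11 was 6.21, and 5.94 in the shared depth range.

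The other mitotic kinases and CDK1 partners, which the choice did not use, were higher too. All 18 measured genes of this list were at least 2-fold higher (median log2 ratio 4.97, against -0.05 over all genes). Plk1, polo-like kinase 1, which acts at spindle poles and kinetochores, stood at 98.6 CPM in mitotic and 0.944 CPM in comparison cells (ratio 104, 35.6 to 508). Aurka, the spindle pole kinase Aurora A, stood at 96.8 and 2.20 CPM (44.0, 21.2 to 110). Nek2, a centrosome kinase, had 304 UMIs in mitotic and 0 in comparison cells, and was at least 44.0-fold higher when comparison cells are set at a floor of 3 counts over the group. Cks1b, a small subunit that binds CDKs, stood at 349 and 12 CPM (29.2, 21.2 to 41.4).

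Genes of mitotic exit differed widely among themselves. Of 11 measured, 6 were at least 2-fold higher, 0 lower, with 5 between (median log2 1.46, and 1.12 in the shared depth range). Cdc20, the activator that turns on the anaphase-promoting complex at metaphase, stood at 180 CPM in mitotic and 3.78 CPM in comparison cells (ratio 47.6, 27.1 to 92.3). Fbxo5, an inhibitor of the complex before mitosis, had a ratio of 28.3 (14.8 to 62.2), and Espl1, the protease separase that cuts cohesin, had 98 and 0 UMIs and was at least 14.2-fold higher. Ube2s, the ubiquitin-chain extending partner of the complex, was also present in comparison cells, at 656 and 151 CPM (4.35, 3.96 to 4.79). Its initiating partner Ube2c (ENSMUSG00000001403; chromosome 2, 164769898 to 164778822, plus strand), one of the genes that chose the cells, stood at 647 and 9.76 CPM (66.3, 46.6 to 97.7). Pttg1, which encodes securin, the guard of separase, was no higher in mitotic cells, at 107 CPM against 134 CPM in comparison cells (0.800, 0.710 to 0.902); it was singled out after its values were seen.

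Kinetochore and centromere genes were higher as a whole, 24 of 24 measured at 2-fold or more (median log2 4.20). Cenpf, a large kinetochore protein, stood at 179 CPM in mitotic and 3.15 CPM in comparison cells (ratio 56.9, 30.8 to 119). Nuf2 and Spc24, of the NDC80 complex that holds microtubules, had ratios of 50.7 (19.7 to 187) and 27.5 (17.7 to 45.1). Sgol1, shugoshin, which protects centromeric cohesin, had 387 UMIs and 1, so that its ratio of 168 carries an interval of 29.97 to 6651. Cenpa, the histone H3 variant that marks the centromere and one of the genes that chose the cells, was the least exclusive of those 11, at 553 CPM in mitotic cells, 158 in the cells in between and 30.8 in comparison cells (17.9, 14.7 to 22.2).

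**Figure D2:**
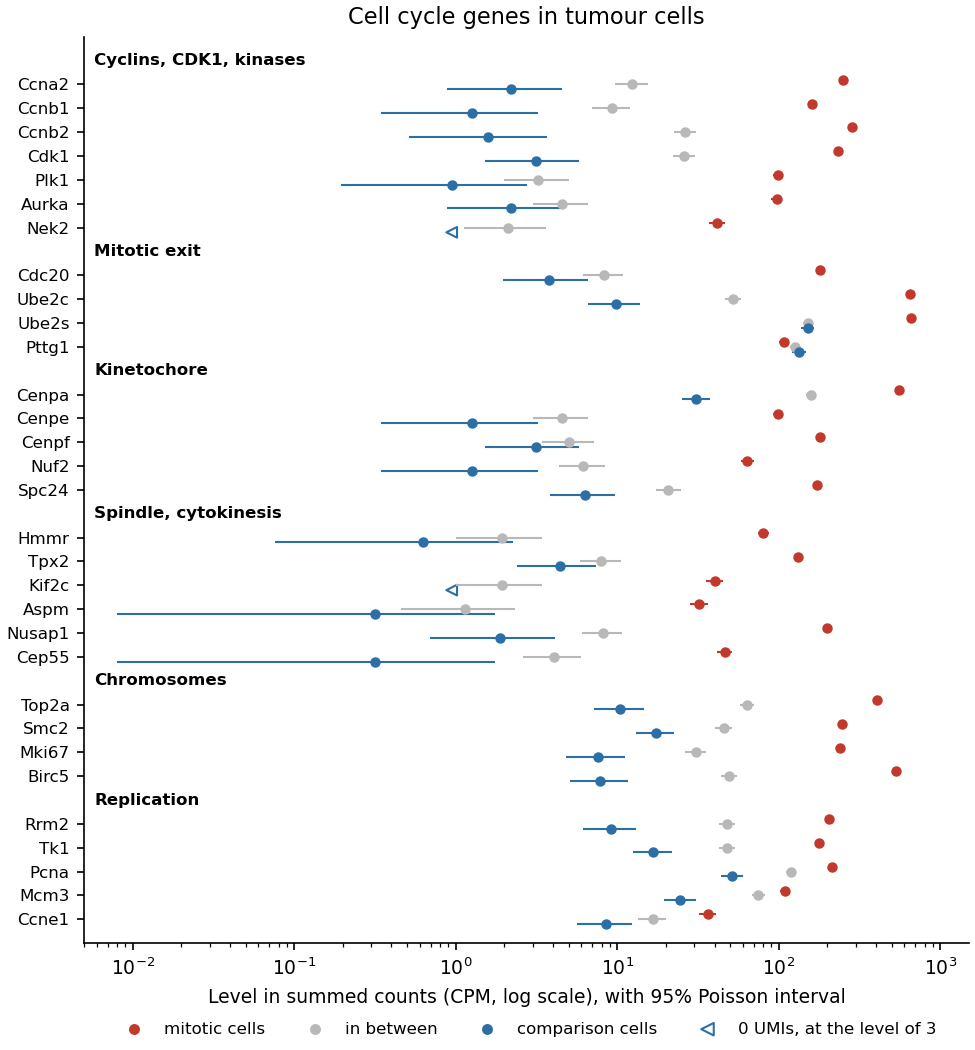
Levels in summed counts (CPM, log scale, with exact 95% Poisson intervals) of cell cycle genes by role in mitotic cells, cells in between and comparison cells of the tumour. Mitotic cells are highest for every gene drawn except Pttg1 (107 CPM against 134 CPM in comparison cells); open triangles mark genes with 0 UMIs, drawn at the level of 3.

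Spindle genes followed, with 25 of 26 measured at least 2-fold higher, 0 lower, with 1 between (median log2 3.53). Hmmr, a microtubule-associated protein, stood at 80.3 CPM in mitotic and 0.629 CPM in comparison cells (ratio 128, 35.2 to 1056). Tpx2, which activates Aurora A on the spindle, had a ratio of 29.9 (17.7 to 54.9). Kif2c, a kinesin that takes microtubules apart, had 293 and 0 UMIs (at least 42.4-fold higher), and Aspm, a spindle pole protein, had 236 and 1 (102, 18.2 to 4063). In absolute terms the tubulin and chromatin genes gave far more UMIs: Tuba1b, an alpha-tubulin, stood at 1767 and 176 CPM (10.0, 9.21 to 10.9).

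Cytokinesis genes, 10 measured, were at least 2-fold higher in 8 cases, lower in 0 and between in 2 (median log2 3.30). Cit, citron kinase, and Cep55, both of which act at the midbody between daughter cells, had ratios of 106 (29.1 to 875) and 147 (26.2 to 5828). Ect2, which activates RhoA at the cleavage furrow, and the kinesin gene Kif14 had 164 and 83 UMIs in mitotic cells and 0 in comparison cells, at least 23.7-fold and 12-fold higher.

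Of the genes of chromosome structure, 19 of 20 were at least 2-fold higher, 0 lower, with 1 between (median log2 2.54). Smc2 and Ncaph, condensin subunits that compact chromosomes, had ratios of 14.3 (10.9 to 19.0) and 26.8 (11.4 to 83.2). Cdca5, sororin, which stabilises cohesin, stood at 50.9 CPM in mitotic and 1.26 CPM in comparison cells (40.5, 15.7 to 149), and Cdca3, a cofactor of a ubiquitin ligase, at 238 and 6.61 CPM (36.0, 23.5 to 58.3). Hmgb2, a chromatin protein, was the most abundant of those described, at 2894 and 422 CPM (6.86, 6.49 to 7.25).

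DNA replication genes were higher in the same cells, with 37 of 38 at 2-fold or more, 0 lower, with 1 between (median log2 2.32, and 1.69 in the shared depth range). Rrm2, the regulated subunit of ribonucleotide reductase, stood at 205 CPM in mitotic, 48.1 CPM in between and 9.13 CPM in comparison cells (ratio 22.5, 15.6 to 33.7). Clspn, of the replication checkpoint, had a ratio of 17.96 (9.01 to 41.9). Tk1, thymidine kinase, stood at 178 and 16.7 CPM (10.7, 8.09 to 14.3). The gap was smaller for Pcna, the sliding clamp of DNA polymerase, at 215 and 51.3 CPM (4.19, 3.56 to 4.95).

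Replication-dependent histone genes, whose messages lack a poly(A) tail for the most part and are caught poorly by a 3' poly(A) method, were at least 2-fold higher in 13 of 15 cases, lower in 0 and between in 2 (median log2 2.25). Hist1h2ap stood at 1122 CPM in mitotic and 12 CPM in comparison cells (ratio 93.8, 68.3 to 133), and Hist1h1b, a linker histone, at 85.4 and 2.83 CPM (30.1, 15.8 to 66.2). Hist1h2ae and Hist1h3c had ratios of 22.2 (12.9 to 42.0) and 15.8 (8.21 to 34.8). Copies of these histone genes are nearly identical, so the counts of single members are uncertain.

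Transcription regulators of the cycle differed among themselves, with 8 of 15 at least 2-fold higher, 0 lower, with 7 between (median log2 1.03, and 0.38 in the shared depth range). Foxm1, the activator of mitotic genes that works with MuvB, stood at 25.4 CPM in mitotic and 0.944 CPM in comparison cells (ratio 26.9, 9.07 to 132). Mybl2, B-Myb, the MuvB partner that precedes it, stood at 36.1 and 0.629 CPM (57.3, 15.7 to 476). E2f8, a repressor made in S phase, had a ratio of 22.4 (7.53 to 110), and E2f1, the activator of replication genes, 4.42 (2.68 to 7.76).

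Brakes of the cycle differed in direction from gene to gene. Of 14 measured, 3 were higher by 2-fold or more, 3 lower and 8 between, with a median log2 ratio of -0.33 that turned to 0.36 in the shared depth range. Higher were Cdkn3, a phosphatase that acts on CDKs, at 113 CPM in mitotic and 5.35 CPM in comparison cells (ratio 21.2, 13.1 to 36.5), and Cdkn2c, which encodes p18, an inhibitor of CDK4 and CDK6, at 131 and 35.6 CPM (3.68, 3.03 to 4.51). Lower were Btg1, an antiproliferative gene of resting lymphocytes, at 395 and 1050 CPM (0.377, 0.358 to 0.396), and Klf2, a transcription factor of quiescence and recirculation, at 37.4 and 124 CPM (0.301, 0.257 to 0.352). Klf2 stood at a ratio of 1.28 in the shared depth range, and Btg1 at 0.640.

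Cdkn1b, which encodes p27, stood at 32.2 CPM in mitotic and 61.1 CPM in comparison cells (ratio 0.528, 0.435 to 0.642), but at 1.07 in the shared depth range. Cdkn1a, p21, stood at 84.8 and 100.4 CPM (0.845, 0.737 to 0.970). Its ratio was 0.779 in the shared depth range but 1.04 when each cell was thinned to 3834 UMIs. The G1 cyclins and kinases, 5 measured, had 2 at least 2-fold higher, 1 lower, with 2 between (median log2 -0.26). The 2 higher genes were the kinase genes Cdk4, with a ratio of 2.72 (2.37 to 3.13), and Cdk2, with 2.99 (2.11 to 4.35). The other 3 genes had intervals below 1. Among these 3 were 2 cyclin genes whose products activate CDK4. Ccnd2 stood at 228 CPM in mitotic and 584 CPM in comparison cells (0.391, 0.365 to 0.417) and Ccnd3 at 132 and 206 CPM (0.640, 0.579 to 0.708). Both stayed below 1 in the shared depth range, at 0.488 and 0.752.

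**Figure D3:**
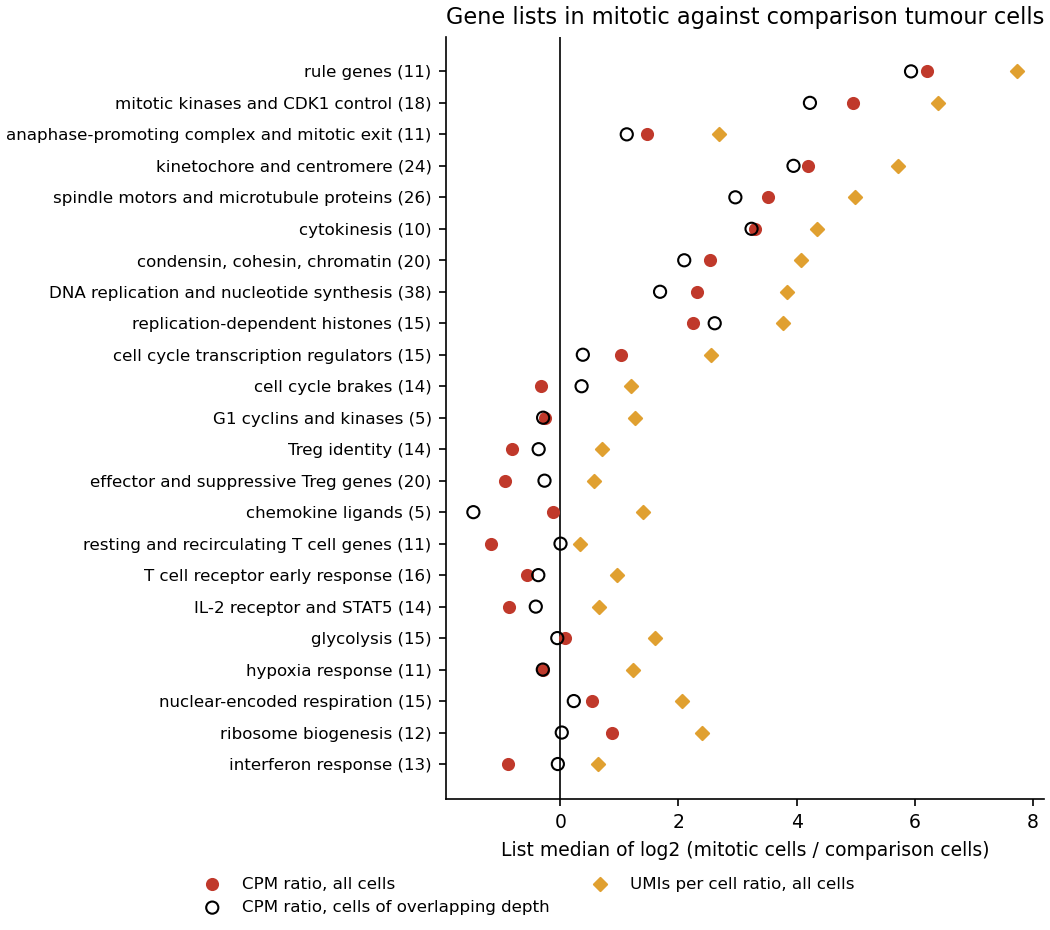
Median log2 ratio of mitotic over comparison tumour cells for 23 gene lists (number of measured genes in brackets): CPM in all cells (filled circles), CPM within the shared depth range of 6798 to 11805.5 UMIs (open circles) and UMIs per cell (diamonds). The 11 genes that chose the cells lie farthest right, with a median CPM log2 ratio of 6.21, and mitotic exit lies nearest 0 among the lists of mitosis, at 1.46. Lists of T cell function lie between -1.18 (resting genes) and -0.13 (chemokines) in CPM, and between -1.48 (chemokines) and 0.00 (resting genes) in the shared depth range.

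Within the 382 cells the late and early parts of the cycle were told apart by genes outside the 11. The UMIs of 12 genes of late mitosis (Plk1, Aurka, Cdc20, Cenpf, Hmmr, Tpx2, Kif20a, Kif23, Ccnf, Nek2, Bub1 and Ckap2) were set against those of the 38 replication genes in each cell. Late genes gave more UMIs in 72 cells (18.8%, 15.0 to 23.1), replication genes in 309 (80.9%, 76.6 to 84.7), and 1 cell had equal numbers. The cells called mitotic by their share thus lean to replication in most cases by this measure, and the name stands for the rule and not for a phase. The lists differ in size and level, so the split marks a lean along a range. In 16 of the late-leaning and 34 of the replication-leaning cells the numbers differed by at most 5 UMIs. Median depth was 15897 UMIs in late-leaning and 18302 UMIs in replication-leaning cells, and the median share of the 11 genes 0.656% and 0.269%.

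Genes outside both lists were set along the same split. Among 7509 genes with at least 50 UMIs, 3.29% were at least 2-fold higher in late-leaning cells and 5.75% at least 2-fold lower. Genes of the lists needed 20 UMIs. Ccnb1, Ube2c, Cenpa and Top2a are among the 11 genes that chose the cells, and the groups of the split differ in the share of those genes, so their values only describe the split. Ccnb1 stood at 377 CPM in late-leaning and 121 CPM in replication-leaning cells (ratio 3.12, 2.76 to 3.51). Ube2c stood at 1474 and 493 CPM (2.99, 2.82 to 3.17) and Cenpa at 1119 and 448 CPM (2.50, 2.33 to 2.67). Top2a, the topoisomerase that untangles sister chromatids, had a ratio of 1.09 (0.987 to 1.20). E2f1 and Mybl2 were used neither to choose nor to split the cells. E2f1 had a level of 0.871 and 27.9 CPM, 32.0-fold lower in late-leaning cells by a count of 1 UMI there (ratio 0.0313, 0.000787 to 0.176), and Mybl2 stood at 6.10 and 41.7 CPM (0.146, 0.0583 to 0.306). Foxm1 stood at 20.9 and 26.3 CPM (0.796, 0.496 to 1.23), with an interval that includes 1.

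Of 14 brakes of the cycle, 2 were at least 2-fold higher in late-leaning cells and 0 lower, with 12 between (median log2 0.62). Below that fold, Btg1 stood at 619 CPM in late-leaning and 354 CPM in replication-leaning cells (ratio 1.75, 1.60 to 1.90) and Cdkn1b at 54.0 and 28.2 CPM (1.92, 1.41 to 2.57). Of 13 interferon-response genes 5 were at least 2-fold higher in late-leaning cells and 0 lower (median log2 0.89). Ifit3, an interferon-induced antiviral gene, stood at 88.9 and 42.5 CPM (2.09, 1.65 to 2.64). Of 12 ribosome biogenesis genes 6 were at least 2-fold lower and 0 higher (median log2 -1.01), among them Nop58, a subunit of the particles that modify ribosomal RNA, at 46.2 and 94.3 CPM (0.490, 0.362 to 0.649).

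The same values were also read along the share of the 11 genes. That share chose the cells, so this is a description and no separate support for the split. From 0.1% to 0.2% there were 108 cells, of which 3 were late-leaning. From 0.2% to 0.4% there were 133, of which 6 were late-leaning, and from 0.4% upward 141, of which 63 were. The replication genes summed to 4276, 3911 and 2470 CPM over these ranges and the 12 late genes to 276, 798 and 1834 CPM. Median depth did not follow, at 17128, 19341 and 17345 UMIs. Pcna stood at 306, 244 and 115 CPM and E2f1 at 44.3, 25.4 and 6.19 CPM.

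**Figure D4:**
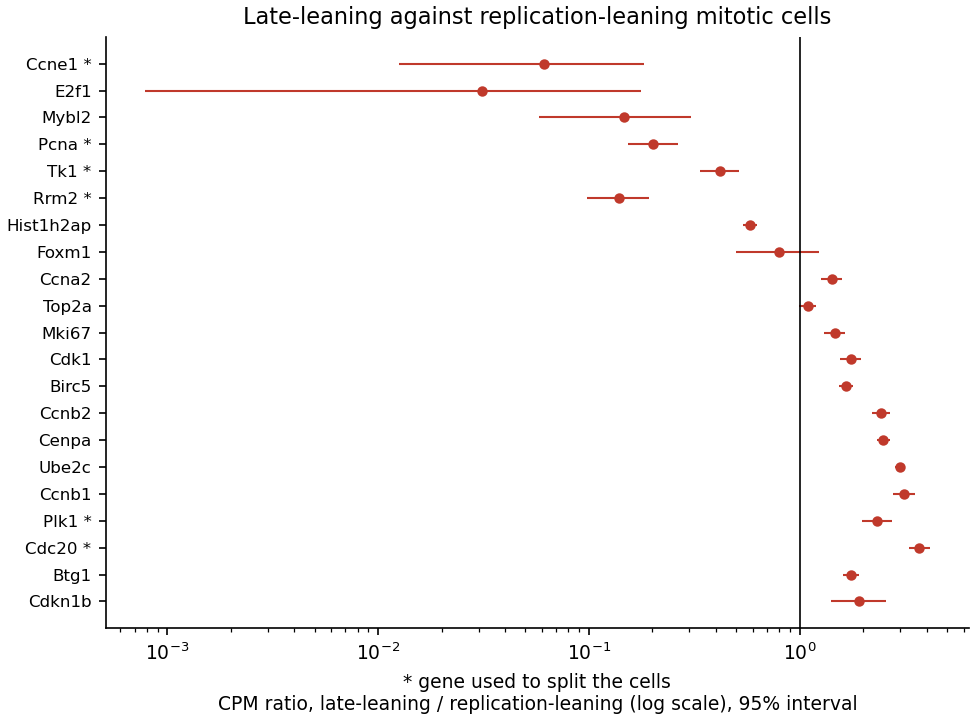
Ratio of CPM in the 72 late-leaning over the 309 replication-leaning mitotic cells (log scale, exact 95% intervals), with stars on genes that made the split. Cyclin B1, Ube2c and Cenpa lie to the right of 1, at 3.12, 2.99 and 2.50, and E2f1 and Mybl2 to the left, at 0.0313 and 0.146.

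Treg identity genes were a smaller share of the transcripts of mitotic cells, though each cell held more of them. Of 14 measured, 0 were higher by 2-fold or more, 5 lower and 9 between, with a median log2 ratio of -0.83. In the shared depth range the median was -0.37, with 0 genes at least 2-fold higher and 0 lower. Per cell at full depth, the median gene of the list was 1.62-fold higher, less than the 2.78-fold of all genes, and 0 of the 14 were below 1. Foxp3 (ENSMUSG00000039521; plus strand of chromosome X, 7573644 to 7595245) had 84 UMIs in mitotic and 78 in comparison cells, 11.5 against 24.5 CPM (ratio 0.467, 0.339 to 0.645), and 0.774 in the shared depth range. Ikzf2, which encodes the Treg factor Helios, stood at 834 and 1318 CPM (0.632, 0.608 to 0.658) but at 1.0 in the shared depth range. Ctla4, an inhibitory receptor through which Treg cells remove costimulatory ligands, had a ratio of 0.683 (0.650 to 0.718), and Il2ra, which gives the receptor of IL-2 its high affinity, 0.657 (0.592 to 0.729). The costimulatory receptor genes Tnfrsf4 and Tnfrsf18 had ratios of 0.472 (0.456 to 0.489) and 0.473 (0.456 to 0.491), and 0.574 and 0.620 in the shared depth range.

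Effector and suppressive genes were likewise a smaller share, with 0 of 20 at least 2-fold higher, 8 lower, with 12 between (median log2 -0.95, and -0.27 in the shared depth range). In that range 1 gene was at least 2-fold higher and 2 were lower. Gzmb (ENSMUSG00000015437; chromosome 14, 56258838 to 56262260, minus strand), the cytotoxic protease granzyme B, stood at 493 CPM in mitotic and 1289 CPM in comparison cells (ratio 0.382, 0.365 to 0.40). On the per-cell scale it stood at 9.44 and 8.60 UMIs, a ratio of 1.10, and in the shared depth range the CPM ratio was 0.628. Free RNA of the tumour held Gzmb at 778 CPM, above its level in mitotic cells. The growth factor gene Areg had 425 and 581 UMIs (0.317, 0.279 to 0.360), and the alarmin receptor gene Il1rl1 had 23 and 50 (0.20, 0.116 to 0.333). Their ratios in the shared depth range were 0.150 and 0.342, the second on at most 23 UMIs in mitotic cells.

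The cytokine genes named in the study's title were both lower in mitotic cells at full depth, but Il10 was higher in the shared depth range. Il10, the inhibitory cytokine, had 244 UMIs in mitotic and 264 in comparison cells, 33.3 against 83.1 CPM (ratio 0.401, 0.336 to 0.479). The ratio turned to 2.04 in the shared depth range. It was 0.720 after thinning and 0.662 with each cell given the same weight, and single cells held up to 23 of the UMIs. Ebi3, a subunit of IL-35, stood at 65.4 and 101 CPM (0.648, 0.561 to 0.748), and at 0.861 in the shared depth range.

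Of 5 chemokine genes measured, 1 was at least 2-fold higher, 1 lower, with 3 between (median log2 -0.13). In the shared depth range 0 were higher and 2 lower, and the median log2 ratio was -1.48. Ccl5, a ligand that attracts effector cells, stood at 821 CPM in mitotic and 2569 CPM in comparison cells (ratio 0.319, 0.309 to 0.330), while free RNA held 1481 CPM. Its ratio in the shared depth range was 0.537. Ccl4 had 2390 and 1708 UMIs (0.607, 0.571 to 0.647), of which 1 mitotic cell held 496, and its ratio was 0.128 in the shared depth range but 1.28 among cells with no melanoma UMI. Xcl1, a ligand of cross-presenting dendritic cells, had 58 and 5 UMIs (5.03, 2.04 to 16.1), of which 1 mitotic cell held 32. Among cells with no melanoma UMI that ratio was 0.917.

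Genes of resting T cells gave few UMIs and were lower in mitotic cells at full depth. Of 11 measured, 0 were higher by 2-fold or more, 7 lower and 4 between, with a median log2 ratio of -1.18 that became 0.00 in the shared depth range. In that range 1 gene was at least 2-fold higher and 3 were lower. Tcf7, a transcription factor of memory and resting T cells, had 14 UMIs in mitotic and 62 in comparison cells (ratio 0.0980, 0.0507 to 0.177). Il7r, the receptor subunit for the survival cytokine IL-7, stood at 10.2 and 58.2 CPM (0.176, 0.133 to 0.231). Id3, an inhibitor of E proteins, had 14 and 33 UMIs (0.184, 0.0910 to 0.354). In the shared depth range the ratios of these 3 genes were 0.310, 0.255 and 0.50. The mitotic cells there held at most 14 UMIs of Tcf7 and of Id3, so these values are uncertain.

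Signalling lists were lower by a modest degree. Among 16 genes induced early by the T cell receptor, 0 were higher by 2-fold or more, 5 lower, with 11 between (median log2 -0.57, and -0.38 in the shared depth range). In that range 0 were at least 2-fold higher and 1 lower. Dusp1, a phosphatase that dampens MAP kinases, had a ratio of 0.423 (0.390 to 0.459) and 1.01 in the shared depth range. The AP-1 gene Fos had 0.469 (0.401 to 0.549), and 0.654 in that range. Of 14 genes of the IL-2 receptor and STAT5 path 0 were at least 2-fold higher, 5 lower, with 9 between (median log2 -0.87, and -0.42 in the shared depth range). In that range 0 were at least 2-fold higher and 1 lower. Il2rg, the common gamma chain, stood at 233 CPM in mitotic and 489 CPM in comparison cells (0.476, 0.444 to 0.510). Socs3, a feedback inhibitor of cytokine signalling, had a ratio of 0.249 (0.195 to 0.317), which was 1.23 in the shared depth range.

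Interferon-response genes were lower in mitotic cells at full depth, with 0 of 13 at least 2-fold higher, 5 lower, with 8 between (median log2 -0.89). In the shared depth range the median was -0.04, with 0 genes at least 2-fold higher and 0 lower. Ifit1 and Ifit3 had ratios of 0.269 (0.240 to 0.301) and 0.215 (0.189 to 0.244), against 0.889 and 0.968 in that range. Irf7, the factor that amplifies the interferon response, stood at 114 CPM in mitotic and 284 CPM in comparison cells (0.40, 0.364 to 0.440), and at 0.727 in that range.

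Of the metabolic lists, glycolysis, hypoxia and respiration had no gene beyond 2-fold at full depth, while ribosome biogenesis had 5. All 15 glycolysis genes lay within 2-fold (median log2 0.08, and -0.05 in the shared depth range). Ldha, lactate dehydrogenase A, stood at 2146 CPM in mitotic and 1583 CPM in comparison cells (ratio 1.36, 1.31 to 1.4). All 11 hypoxia genes lay within 2-fold as well (median log2 -0.29), with Hilpda, a lipid droplet gene, at 224 and 427 CPM (0.524, 0.488 to 0.564). In the shared depth range 2 hypoxia genes were at least 2-fold lower, among them Ankrd37 (0.40), with a list median of -0.30. The 15 respiration genes were all within 2-fold but tilted upward (median log2 0.54, and 0.23 in the shared depth range). Atp5b, of ATP synthase, had a ratio of 1.65 (1.56 to 1.74). Of 12 ribosome biogenesis genes 5 were at least 2-fold higher, 0 lower, with 7 between (median log2 0.87, and 0.02 in the shared depth range). Nop58 had a ratio of 2.70 (2.19 to 3.36), and 1.54 in that range.

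Outside the lists, 613 genes were at least 2-fold higher and 439 at least 2-fold lower. The 12 with the largest ratios upward, by the interval bound nearest to 1, were Shcbp1, Esco2, Neil3, Mxd3, Fam64a, Depdc1a, Prr11, Sapcd2, Trip13, Traip, Ska3 and Eme1. Shcbp1, a midbody protein, had 360 UMIs in mitotic and 2 in comparison cells (ratio 78.1, 21.5 to 648). Esco2, an acetyltransferase that makes cohesion in S phase, had 307 and 2 (66.6, 18.3 to 553). Trip13, an ATPase of the spindle checkpoint, had a ratio of 37.6 (12.7 to 184), and Mxd3, a MYC-network repressor, 36.0 (16.4 to 98.4). Esco2 was higher at the replication end of the range, at 13.1 CPM in late-leaning and 47.3 CPM in replication-leaning cells (0.276, 0.153 to 0.463).

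The 12 lowest were Mmp9, Tcp11l2, Ly6c1, Ecm1, Slfn5, Ifit3b, Tmem176b, Tnfrsf25, Ccr3, Cxcl10, Ltb4r1 and Lilrb4a. Mmp9, a secreted protease of the extracellular matrix, had 28 UMIs in mitotic and 132 in comparison cells, 10.9-fold lower (7.18 to 17). Ly6c1, a surface antigen of memory T cells, had 10 and 53 and was 12.2-fold lower (6.15 to 26.9). Tcp11l2 was 9.90-fold lower (6.89 to 14.6), and Cxcl10, an interferon-induced chemokine, 4.33-fold lower (3.62 to 5.19). In the shared depth range their ratios were 0.264, 0.434, 0.404 and 0.847. Malat1, a nuclear noncoding RNA singled out after its values were seen, gave 42427 and 64788 UMIs, or 5795 against 20390 CPM (0.284, 0.281 to 0.288). It was among the genes lower per cell as well, at 111 and 136 UMIs.

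The same share picked 59 of 2211 lymph node cells, 2.67% (2.04 to 3.43), against 26.2% in tumour. Tumour cells were deeper, with a median of 8766 UMIs and 4090 UMIs in lymph node. After every cell was thinned to 1811 UMIs, at least 2 UMIs of the 11 genes were found in 455 of 1457 tumour cells (31.2%, 28.9 to 33.7) and in 80 of 2211 lymph node cells (3.62%, 2.88 to 4.48). At 3834 UMIs and at least 4 such UMIs the shares were 27.6% and 4.33%, with 986 shallower lymph node cells left out. Free RNA held 0.209% of its UMIs in the 11 genes in tumour and 0.0659% in lymph node, which moves with this difference, and its part was not tested. The 59 cells are few: 1 of them had no Cd3 UMI and 1 no UMI of a Treg marker. Of 2051 lymph node cells with fewer than 2 UMIs of the 11 genes, 6 had no Cd3 UMI and 125 no UMI of a Treg marker.

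Mitotic kinase and replication genes stood apart in lymph node as in tumour. The 59 mitotic cells of lymph node were set against 2051 comparison cells of the same tissue. Of 8217 genes with at least 50 UMIs, 11.2% were at least 2-fold higher in these mitotic cells and 9.82% at least 2-fold lower. Genes of the lists needed 20 UMIs, and the share over all genes at that minimum was not computed for lymph node. All 17 measured mitotic kinase genes and 37 of 38 replication genes were at least 2-fold higher. Between the mitotic cells of tumour and of lymph node, where 7.55% of 7823 genes were at least 2-fold higher and 3.17% at least 2-fold lower, the cyclins and Cdk1 were close. Both groups were chosen by the same minimum share of these genes, so near levels of them are in part set by the choice. The tumour over lymph node ratio was 1.07 (0.896 to 1.28) for Ccnb1, 0.973 (0.857 to 1.11) for Ccnb2, 0.969 (0.846 to 1.11) for Ccna2 and 0.934 (0.814 to 1.08) for Cdk1. Rrm2 and Hist1h2ap were lower in the tumour's mitotic cells, with ratios of 0.565 (0.502 to 0.638) and 0.368 (0.353 to 0.384).

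The effector list stood on opposite sides of 0 in the tissues, while the other lists of T cell function stood below 0 in both. The effector list was not alone in this. The lists of G1 genes (median log2 -0.26 in tumour, 1.01 in lymph node) and of hypoxia (-0.29 and 0.54) also changed side. Of 19 effector and suppressive genes measured in lymph node, 9 were at least 2-fold higher in mitotic cells and 2 lower (median log2 0.96), where the tumour list had 0 higher and 8 lower. Gzmb had 63 UMIs in the 59 mitotic cells and 30 in the comparison cells of lymph node, a ratio of 20.01 (12.8 to 32.02), against 0.382 in tumour. Ctla4 had ratios of 0.683 in tumour and 1.86 (1.57 to 2.21) in lymph node, and Ebi3 of 0.648 and 1.94 (1.28 to 2.85). Il10 had 0 UMIs in mitotic and 10 in comparison cells of lymph node, so that no ratio could be given. In lymph node the median log2 ratio of Treg identity genes was -0.52 (0 of 14 higher, 3 lower) and that of the IL-2 receptor and STAT5 list -0.57 (0 of 14 higher, 4 lower). Genes of the early T cell receptor response had -0.29 (1 of 16 higher, 3 lower) and resting genes -1.46 (0 of 13 higher, 11 lower). Interferon-response genes had -1.81 (0 of 13 higher, 10 lower). The chemokine list had -0.999 but rested on only 2 measured genes there (0 higher, 1 lower). Single genes also went the same way in both tissues. Btg1 had ratios of 0.377 in tumour and 0.265 (0.236 to 0.296) in lymph node, Ccnd2 of 0.391 and 0.525 (0.464 to 0.593), and Ifit1 of 0.269 and 0.0331 (0.00400 to 0.120). The lymph node ratios were not matched for depth. Median depth there was 14672 UMIs in mitotic and 3969 UMIs in comparison cells. Mean UMIs of mitotic over comparison cells stood at 3.65 in lymph node and 2.87 in tumour, and the part of depth was not tested. The difference between tissues was not tested, since each tissue is 1 library.

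**Figure D5:**
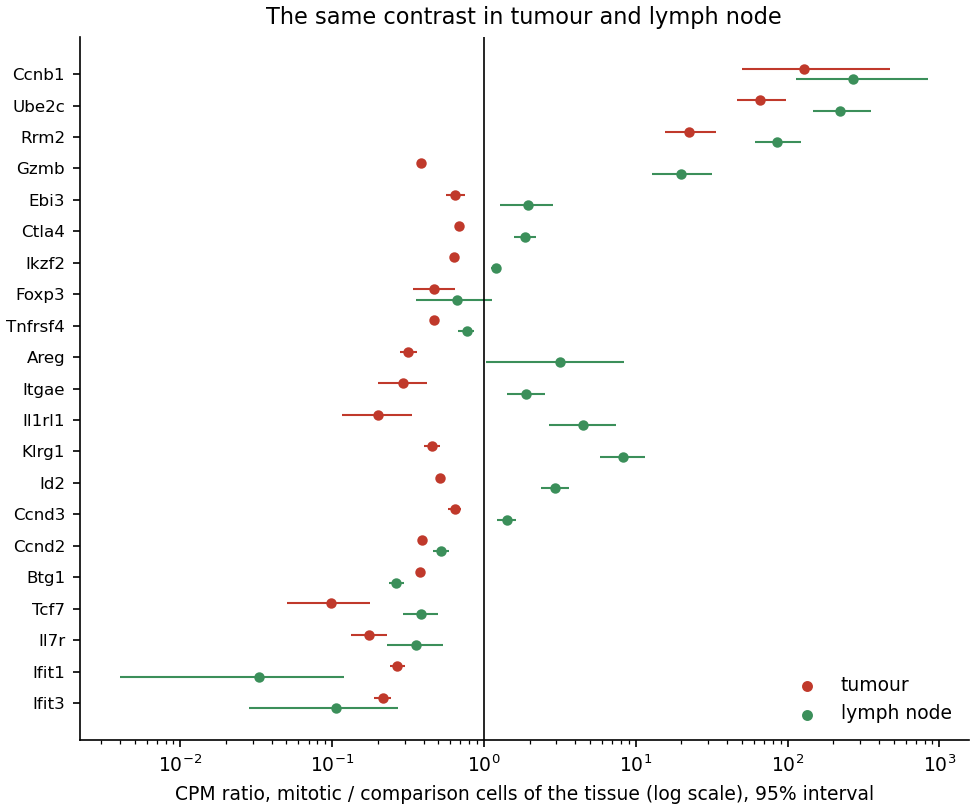
CPM ratio of mitotic over comparison cells within tumour and within lymph node (log scale, exact 95% intervals). Ccnb1 and Ube2c, which are among the genes that chose the cells, and Rrm2 lie right of 1 in both tissues. Btg1, Ccnd2, Ifit1 and Ifit3 lie left of 1 in both, and Gzmb lies at 0.382 in tumour and 20.01 in lymph node.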

How the data were processed

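The authors deposited 1 unfiltered matrix per library, which holds whole-number UMI counts by gene and barcode. Per the submitters' processing notes, Cell Ranger and the mm10 build were used; its version and the gene annotation are not stated there. A barcode was a cell with at least 3834 UMIs in tumour (1811 in lymph node), that is 10% of the 99th percentile among the 3000 largest barcodes, with 200 genes or more and no more than 10% mitochondrial UMIs. In tumour 1489 barcodes passed the UMI threshold and 14 of them exceeded the mitochondrial limit. A further 15 were removed for 20 or more UMIs of Pmel, Dct and Mlana and 3 for 3 or more of C1qa, C1qb and Lyz2. In lymph node 2211 of 2226 were kept. Doublets were kept and no caller was run.

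Raw counts were summed over each group of cells and scaled to CPM, so deeper cells weigh more. Ratios carry exact conditional-binomial 95% intervals, sums exact Poisson and shares Clopper-Pearson intervals. These cover counting error only. Genes needed 50 UMIs over both groups to enter counts, and list members 20. Where a group had 0 UMIs, a floor of 3 counts over the group was used. Coordinates come from GENCODE M21 on GRCm38, in which 27645 of 27998 identifiers were found. Python 3.11.15, numpy 2.4.6, scipy 1.17.1 and pandas 2.3.3 were used, with edgeR 4.0.16 and DESeq2 1.42.0 for scaling factors alone. The counting of changed genes was tested on simulated data.

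The cells, the 23 gene lists and the 14 marker lists were chosen with earlier results of these data known. Genes named are the 11 that chose the cells, 6 markers of mitosis, 12 genes of Treg and cell cycle biology whatever their value, up to 4 genes of each list and 12 genes each way outside the lists, by the interval bound nearest to 1, and markers of other cells; others are said to be chosen after their values were seen, which also holds for Pcna, Tuba1b, Hmgb2 and those given only for the range within mitotic cells. Some genes that the rule names are not reported here. Alternatives to the threshold, depth, weighting, scaling, cells and minimum counts were tried, and the closing section gives their effect.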

Additional observations from a re-analysis of the deposited data

Results flagged for a closer look

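Some barcodes below the cell threshold also reached the mitotic share. Of 431 tumour barcodes with 1000 to 3833 UMIs, 37 (8.58%) had at least 0.1% and at least 4 UMIs in the 11 mitotic genes, against 1 of 190 such barcodes (0.526%) in lymph node. Free RNA itself held 0.209% of its UMIs in the 11 genes in tumour and 0.0659% in lymph node. Its part in these small barcodes was not tested. The barcodes entered no comparison.

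Of 147 named genes, 12 had counting intervals on opposite sides of 1 for mitotic over comparison cells in tumour and in lymph node. The same count over all genes was not made, and many of the 147 were named by their tumour ratio. The 12 are therefore no measure of how common such genes are. The differences between the tissues were not tested, since each is 1 library, and the lymph node ratios were not matched for depth. Higher with the mitotic share in lymph node and lower in tumour were Gzmb (0.382 in tumour, 20.01 in lymph node), Ltb4r1, a leukotriene receptor gene (0.204 and 17.997), Ccr3 (0.145 and 4.76), Il1rl1 (0.20 and 4.49), Areg (0.317 and 3.18), Ebi3 (0.648 and 1.94), Itgae, an integrin subunit gene (0.291 and 1.90), Ctla4 (0.683 and 1.86), the D-type cyclin gene Ccnd3 (0.640 and 1.42), the glycolytic gene Aldoa (0.813 and 1.27) and Ikzf2 (0.632 and 1.20). Of these, Ikzf2 stood at 1.0 and Ccr3 at 1.45 in the shared depth range of the tumour. Xcl1 was the other way, at 5.03 in tumour and at most 0.265 in lymph node, where mitotic cells had 0 UMIs and the floor of 3 was used. Areg and Ccr3 rest on 6 UMIs each in the 59 lymph node cells.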

How the results depend on the processing

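The 8 genes named from the mitotic kinase and kinetochore lists kept ratios above 5 under every alternative run. The share of cells called mitotic, 26.2%, was 39.3% at a threshold of 0.05%, 18.8% at 0.2%, 22.9% without the 5% of cells with most UMIs, 23.0% among cells with no melanoma UMI, 28.7% among cells with a Foxp3 UMI and 29.9% from 5000 UMIs. The 789 genes at least 2-fold higher became 411 after thinning, 179 in the shared depth range, 443 in cells with a Foxp3 UMI, 1207 with a minimum of 1 UMI and 1495 at 1.5-fold. The 476 lower became 310 at 0.05%, 262 after thinning, 73 in the shared depth range, 198 in cells with a Foxp3 UMI, 311 with trimmed-mean scaling, 295 with the median of ratios, 725 with a minimum of 20 UMIs, 1600 with 1 UMI and 1514 at 1.5-fold. Thinning, the shared depth range and the Foxp3 selection left 5656, 3941 and 4121 genes to test. Of the genes tested, 7.27% were higher and 4.63% lower after thinning, 4.54% and 1.85% in the shared depth range and 10.7% and 4.8% with a Foxp3 UMI, against 9.48% and 5.72% of all 8325. The shares thus fell with thinning and in the shared depth range as well; the cause was not tested.

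Directions turned in 22 values; the cause was not tested. In the shared depth range these were the list medians of brakes (0.36), resting genes (0.000894) and glycolysis (-0.0536) on the log2 scale, and the ratios of Ikzf2 (1.004), Il10 (2.04), Cdkn1b (1.07), Klf2 (1.28), Dusp1 (1.01), Socs3 (1.23), Tpi1 (0.935), Mt1 (0.809), Nolc1 (0.913), Ccr3 (1.45) and Cd79b (1.52). No interval was given for the values of that range, so a turn there can lie within counting error. Cdkn1a was at 1.04 both after thinning and with each cell given the same weight. Among cells with no melanoma UMI Xcl1 was at 0.917 and Ccl4 at 1.28. Among cells with a Foxp3 UMI the medians of G1 genes and chemokines were 0.21 and 0.29 and Ccl4 was at 1.44. With the median of ratios the chemokine median was 0.00344. Of 1714 gene ratios under alternatives, 1225 moved by less than the counting error, 473 by more, and 16 turned.

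No paired analysis was possible because each tissue is 1 library. Depth limits genes with few UMIs in comparison cells, whose ratios have wide intervals.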
